A study of Mus musculus with 8 samples.

Results

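The 5 genes described here are those whose transcripts make hemoglobin: Hba-a1 and Hba-a2, which encode alpha-globin, Hbb-bs and Hbb-bt, which encode adult beta-globin, and Alas2, which encodes the erythroid enzyme for the first step of heme synthesis. They are 5 of the 33027 genes in single-cell RNA profiles of mouse lung. They were chosen by the mean level of Hba-a2 per mouse in alveolar type II (AT2) cells, which was higher after smoke exposure, so the contrast between the groups in AT2 cells is given below as a description, with no test. The lungs came from 8 Sftpc-CreERT2-mTmG mice on a C57BL/6 background, in which tamoxifen, injected at 8 to 10 weeks of age, turns on eGFP in Sftpc-expressing cells while all other cells carry tdTomato. Littermates then breathed cigarette smoke (CS, 4 mice named C2, C5, D2 and D5) for 10 months or room air only (RA, 4 mice named F1, F3, M1 and M3), and the labels call 2 mice of each group male and 2 female. In the CS group the sex labels went against the transcripts, with Xist at 7.83 and 8.34 per 10,000 in both libraries called male and Ddx3y, from the Y chromosome, at 0.925 and 1.08 in both called female, so no result below uses sex. All lungs were flushed with saline, digested to single cells and treated with a lysis buffer for red cells, and cells with and without the leukocyte marker CD45 were mixed again at 10% to 90%.

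Hemoglobin joins a pair of alpha chains and a pair of beta chains, each around a heme group, and carries oxygen. Its transcripts are made in erythroid precursors in marrow and spleen, accumulate to extreme levels, and remain for a short time in young red cells (reticulocytes) after the nucleus is lost. Mature red cells hold little RNA of other kinds, and red cells that burst during tissue digestion release globin transcripts that can enter any droplet. The authors had subtracted an estimate of such free RNA from every cell with SoupX, and the values here are transcripts per 10,000 in a cell after that subtraction, averaged over the cells of one label in one mouse, and n counts mice. Counts were of 3′ ends marked by unique molecular identifiers (UMIs), so that they count molecules and do not grow with transcript length. After the subtraction only 1.28% of the values above 0 were whole, and the smallest was 1.64e-06. A gene said below to be found, or above 0, in a cell can therefore stand at a small part of 1 UMI.

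Hba-a1 lies on chromosome 11 of GRCm38 from 32283511 to 32284465 and Hba-a2 from 32296489 to 32297298, both on the plus strand with 3 exons. Hbb-bs lies on chromosome 7 from 103826534 to 103828096 and Hbb-bt from 103812524 to 103813996, both on the minus strand with 3 exons. Alas2 lies on the X chromosome from 150547375 to 150570638 with 11 exons. These are positions of the GENCODE gene models, whose outermost start lies upstream of the RefSeq start by 161 bases in Hba-a1, 3 in Hba-a2, 168 in Hbb-bs, 73 in Hbb-bt and 42 in Alas2, so the sequences below, taken from the RefSeq starts, overlap the gene spans. The 150 bases before each RefSeq start (GRCm38.p6) are shown as a description of the letters. The members sit on 3 chromosomes and moved together across cell types, and the part of promoter sequence in that was not tested. Capitals mark matches to CACCC, to CCAAT, to TATAA and to GATA with A or T before it and A or G after it, searched on both strands with overlaps allowed. The sequence of Hba-a1 (chr11:32283522-32283671) shares a run of 147 bases with that of Hba-a2 and is not repeated.
Hba-a2 (chr11:32296342-32296491, plus strand): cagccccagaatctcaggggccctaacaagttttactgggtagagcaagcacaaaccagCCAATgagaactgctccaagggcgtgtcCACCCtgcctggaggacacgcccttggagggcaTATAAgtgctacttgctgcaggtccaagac
Hbb-bs (chr7:103827929-103828078, minus strand): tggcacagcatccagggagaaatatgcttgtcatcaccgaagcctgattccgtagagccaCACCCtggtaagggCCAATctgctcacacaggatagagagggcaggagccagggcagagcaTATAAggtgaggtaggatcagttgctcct
Hbb-bt (chr7:103813924-103814073, minus strand): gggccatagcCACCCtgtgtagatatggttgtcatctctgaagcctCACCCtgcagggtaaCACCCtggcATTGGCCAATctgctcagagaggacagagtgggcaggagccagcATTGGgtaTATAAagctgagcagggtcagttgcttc
Alas2 (chrX:150547267-150547416, plus strand): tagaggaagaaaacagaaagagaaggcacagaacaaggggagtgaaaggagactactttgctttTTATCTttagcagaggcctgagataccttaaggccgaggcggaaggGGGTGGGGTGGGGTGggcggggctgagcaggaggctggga
All 4 globin genes held a match to CACCC, which 36.9% of the 27025 promoters of the same length held. They also held a match to CCAAT (25.3% of promoters) and one to TATAA (14.7%), and none to the GATA letters. Alas2 held 3 CACCC matches and 1 GATA match on the minus strand, and 16.3% of promoters held a GATA sequence. These matches are descriptions of the letters, not sites of binding.

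The copies are hard to tell apart by short reads. Of all 98-base windows, the length of the sequenced read, in the last 400 bases of the Hba-a1 transcript, 67.7% also occur in the Hba-a2 transcript, and 47.5% of those of Hbb-bs occur in that of Hbb-bt. How reads from the shared sequence were counted for Hba-a1 and Hba-a2, and for Hbb-bs and Hbb-bt, is uncertain for that reason. The members of each pair are not independent measurements. The shares of alpha-globin, Hba-a1 and Hbb-bs given below carry the same uncertainty.

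After 1025 multiplets and 7 cells labelled cell cycle were left out, 40074 cells of 32 labels remained, with 31882952 to 55485617 UMIs per mouse and medians of 4254 to 6473 UMIs per cell. Libraries shared between 1 and 14 cell barcodes a pair, and pairs sequenced in the same lane shared between 7 and 11. All 4 globins together made up 247678 UMIs. By mouse, globin UMIs per 10,000 of all UMIs were 9.23 in C2, 3.62 in C5, 11.8 in D2 and 7.10 in D5 (CS), and 5.92 in F1, 2.47 in F3, 6.89 in M1 and 10.5 in M3 (RA). The groups overlapped widely in this total.

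The cells labelled erythrocytes numbered 115 and held 50.7% of all globin UMIs. C2 gave 20 of them, C5 10, D2 22, D5 21, F1 16, F3 8, M1 12 and M3 6. Hbb-bs was the most abundant member, with 1532 ± 812 transcripts per 10,000 (SD, n = 8 mice), followed by Hba-a1 with 358 (lowest mouse 132, highest 631), Hbb-bt with 329 (139 to 654) and Hba-a2 with 288 ± 138 (SD, n = 8). Alas2 stood at 14.6 ± 7.56 (SD, n = 8). Every one of these cells had Hba-a2 and Hbb-bs above 0, and 92 had Alas2. Single cells ranged from 35.4 to 8426 globin transcripts per 10,000, with a median of 1499. Summed over the 4 globins, the mouse means were 1003 in C2, 1851 in C5, 3155 in D2 and 1951 in D5, and 2337 in F1, 1221 in F3, 4631 in M1 and 3915 in M3. The RA mean was the larger of the group means, and the groups overlapped.

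The label was checked against 14 measured erythroid markers other than the members, 12 of which were higher in these cells than in any other label with at least 20 cells in 3 or more mice. Bpgm, the enzyme that makes the regulator of oxygen release 2,3-bisphosphoglycerate, was found in 70 of the 115 cells. Slc4a1, the membrane anion exchanger band 3, was found in 25. Gata1 and Tfrc had higher means in mast cells and AT2 cells. The endothelial Pecam1 was above 0 in 82 of the 115 cells (71.3%), more than any of the 14 markers. It was above 0 in 62.3% of the remaining cells of other labels. These shares count any value above 0, however small. Of 6 platelet genes, Ppbp was above 0 in 1 cell, Itga2b in 3 cells and the others, among them Pf4 and Gp9, in none, and both T cell genes, Cd3e and Cd3g, were at 0. The summed genes of B cells averaged 3.59 per 10,000 in the CS group and 2.79 in the RA group. Those of AT2 cells averaged 0.551 and 11.7, and those of club cells 0.140 and 18.9, with RA mice from 0 to 44.0 and from 0 to 67.0. The part of these other transcripts in the values of the erythrocyte label was not tested. The summed erythroid markers had means of 20.8 per 10,000 in CS mice (10.7 to 38.2) and 95.6 in RA mice (26.1 to 260). The 3 endothelial genes in the same cells summed to 23.0 per 10,000 in CS mice (16.4 to 31.1) and 21.4 in RA mice (2.305 to 37.3), and the 3 gCap genes to 12.7 and 10.2, so in the CS group the endothelial sum was as high as that of the erythroid markers. Of all cells used, 0.381 ± 0.169% carried this label in the CS group and 0.218 ± 0.0594% in the RA group (SD, 4 mice each), and the difference of 0.163 percentage points did not pass an exact two-sided permutation test of the mice (p = 0.114). The smallest p that 4 mice against 4 allow is 0.0286. By the same exact test the difference was 0.0888 without C2 (p = 0.229), the CS mouse with the largest share, and 0.226 without C5 (p = 0.0286), the one with the smallest.

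Outside that label, globin transcripts were concentrated in a few cells. A cell was called globin-rich at 100 or more summed globin transcripts per 10,000, a value set after the data had been seen. Only 122 of 39959 cells of the other labels reached it, and these 0.305% of cells held 88.1% of the globin UMIs outside the erythrocyte label. The 12 richest of these cells alone held 30.2% and the 41 richest 64.9%. The remaining cells held 5.87% of all globin UMIs in the study. Of the single members, the globin-rich cells held 91.2% of the Hbb-bs, 85.1% of the Hbb-bt, 83.1% of the Hba-a1, 82.4% of the Hba-a2 and 56.6% of the Alas2 UMIs found outside the erythrocyte label. The limit cuts a continuous range: 10 cells lay between 100 and 130, and 26 cells between 70 and 100.

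**Figure D1:**
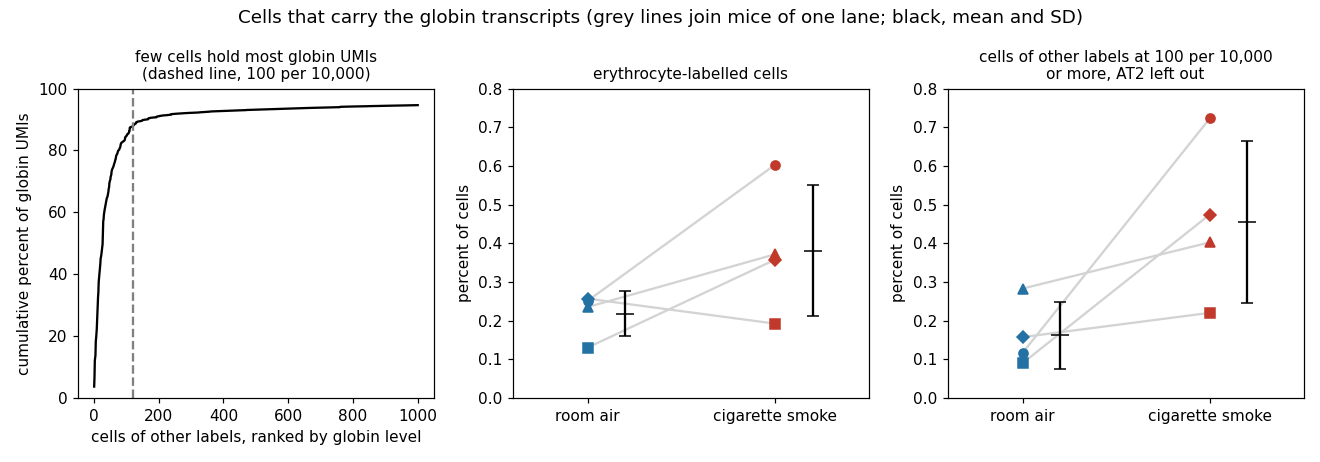
The left panel plots the cumulative percent of globin UMIs outside the erythrocyte label (y axis) over the 1000 cells richest in globin, in order of level (x axis), and the dashed line marks the 122 cells at 100 or more per 10,000, which hold 88.1%. The other panels plot, for each mouse, the percent of cells with the erythrocyte label and the percent of cells of other labels, AT2 left out, that are globin-rich. Grey lines join the RA and CS mouse of a lane, black bars are means and SD of 4 mice, and CS is higher in 3 of 4 lanes in the middle panel and in 4 of 4 in the right one.

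Globin-rich cells occurred in 25 of the 31 other labels, with no one tissue compartment behind them. Aerocytes, the capillary cells of gas exchange, had 20 (0.472% of 4240 cells), ciliated cells 13 (0.369%), T cells 12 (0.678%), AT2 cells 12 (0.638%), neutrophils 9 (0.638%), mast cells 8 (0.663%) and AT1 cells 7 (0.718%). General capillary (gCap) cells, the most numerous label with 9988 cells, had 2 (0.020024%). The highest level in a single cell outside the erythrocyte label was 5029 per 10,000, in a mast cell. Globin-rich cells had a median of 6790 UMIs, against 5228 in the remaining cells of other labels and 3957 in the cells labelled erythrocytes. These medians mix labels of different depth, and within labels the order went both ways. The median of globin-rich cells was higher in AT1 cells (13005 against 10109) and T cells (6273 against 4749). It was lower in mesothelium (8547 against 15071) and club cells (15383 against 32788).

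Genes that mark a label, and that may have served to assign it, were read in the globin-rich cells of 5 labels, as means over cells because few cells came from each mouse. The 12 globin-rich AT2 cells averaged 1024 Sftpc transcripts per 10,000, the surfactant protein that marks AT2 cells, against 1201 in the other 1869 AT2 cells, and Lamp3 stood at 13.8 against 13.7. The 7 globin-rich AT1 cells averaged 146 for Ager, against 165, and the 20 globin-rich aerocytes 22.3 for Car4, against 27.1. In the 9 globin-rich neutrophils S100a9 averaged 569, against 460. In the 12 globin-rich T cells Cd3e averaged 2.64, against 3.57, and was found in 8 cells, and Cd3g averaged 2.96, against 5.18. Beside these they held red-cell transcripts other than the members. Over all labels, Bpgm was found in 56.6% of the 122 globin-rich cells and in 16.0% of the remaining cells. Ube2l6, an enzyme of protein modification that is high in reticulocytes, averaged 1.98 against 0.202, and Mkrn1 2.94 against 0.599. Of 14 erythroid markers 13 had the higher mean in the globin-rich cells, and the exception was Klf1, an erythroid transcription factor, which was not found in any of them.

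The make-up of the globin transcripts differed little between erythrocyte-labelled and globin-rich cells and more in the remaining cells. In the erythrocyte-labelled cells, alpha-globin made up 25.6 ± 2.60% of globin UMIs (SD, n = 8 mice), and in the globin-rich cells of other labels 26.6 ± 2.93%. In the remaining cells of other labels the share was 40.0 ± 2.68%, higher than in the erythrocyte-labelled cells of the same mouse in 8 of 8 mice, by 14.4 percentage points on average (exact two-sided sign-flip test over mice, p = 0.00781, the smallest it can give, Benjamini-Hochberg adjusted p = 0.0208). Hbb-bs made up 82.1 ± 1.27% of beta-globin UMIs in erythrocyte-labelled cells, 83.1 ± 1.43% in globin-rich cells and 72.1 ± 5.56% in the remaining cells, the last lower in 8 of 8 mice (exact sign-flip p = 0.00781, adjusted p = 0.0208). Between globin-rich and erythrocyte-labelled cells of a mouse the alpha share differed by at most 3.42 percentage points (exact p = 0.180, adjusted p = 0.240) and the Hbb-bs share of beta by at most 3.18 (exact p = 0.0703, adjusted p = 0.141). The adjustment covers the 8 differences tested, and the cells were divided after the data had been seen.

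Hba-a1 made up a similar part of the alpha-globin UMIs in all 3 classes of cells, 56.1 ± 3.33%, 56.3 ± 2.78% and 54.7 ± 2.47%; it varied more between mice than between erythrocyte-labelled and globin-rich cells of a mouse. In M1 it was 60.8% in erythrocyte-labelled and 59.9% in globin-rich cells, in F3 59.8% and 59.6%, and in M3 50.05% and 51.3%. Within a mouse these classes differed by at most 2.298 percentage points, and between mice the erythrocyte-labelled cells ranged from 50.05% to 60.8%. Alas2 made up 5.52 ± 1.21 UMIs for every 1000 globin UMIs in erythrocyte-labelled cells and 5.16 ± 1.39 in globin-rich cells. In the remaining cells it made up 48.1 ± 51.1. There it was highest in the RA mice M1 (124) and M3 (137), whose remaining cells held the fewest globin UMIs, 803 and 366. Without the globin-rich cells, the mean level of Alas2 was highest in mesothelium (0.0666), then in mast cells (0.0626), among the 25 other labels compared. In mesothelium it was 0.109 in M1 and 0.109 in M3, against 0.0221 to 0.0882 in the other mice with at least 20 such cells. The part of mesothelium and mast cells in the ratio of Alas2 to globin was not tested.

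**Figure D2:**
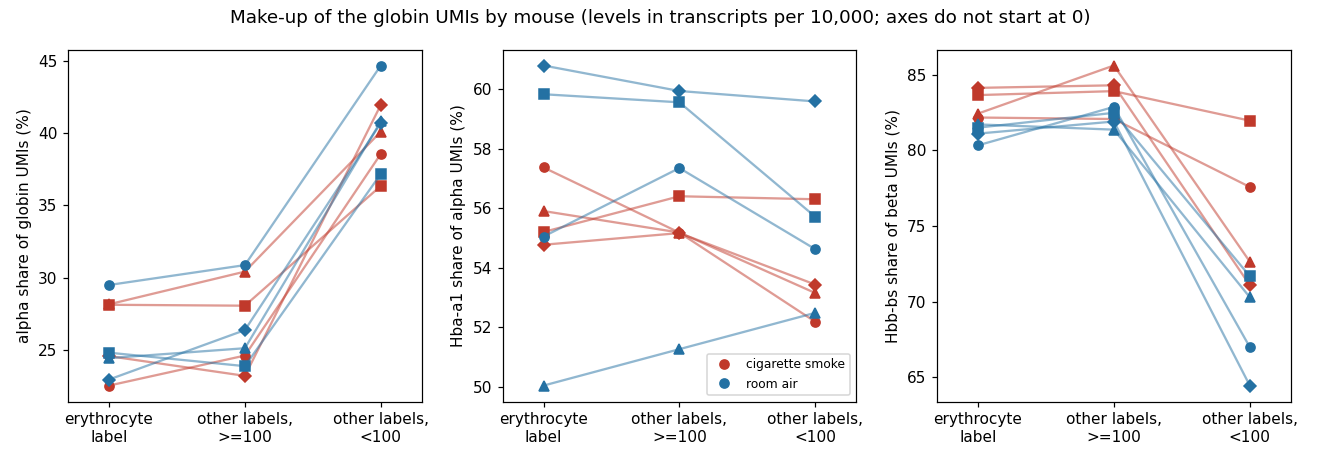
Each line is one mouse (red, CS; blue, RA) across the erythrocyte-labelled cells, the globin-rich cells of other labels and the remaining cells, and the y axes give the alpha share of globin UMIs, the Hba-a1 share of alpha UMIs and the Hbb-bs share of beta UMIs in percent, with axes that do not start at 0. The first 2 classes lie close together in each mouse, and in the remaining cells the alpha share is higher in 8 of 8 mice and the Hbb-bs share lower in 8 of 8.

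With the other labels weighted equally, which counts the globin-rich cells in, the alpha share was 29.1 ± 4.15% in the other cell types and 26.0 ± 2.82% in erythrocyte-labelled cells (SD, n = 8). The erythrocyte-labelled cells were lower by 3.11 percentage points on average, in 7 of 8 mice (exact two-sided sign-flip p = 0.0234). The exception was D2, which was higher by 0.777.

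Across cell types the levels fell into a red-cell level and a broad floor. Among 26 labels with at least 20 cells in 3 or more mice, or labelled erythrocytes, the step from the erythrocyte label to the next was the only one between neighbors in the order of means that exceeded the larger of their SDs, for each of the 5 members. In epithelial cells Hbb-bs averaged 6.56 ± 8.25 per 10,000 in AT1 cells, 3.02 ± 3.84 in AT2 cells, 1.99 ± 2.44 in ciliated cells, 0.813 ± 0.761 in club cells and 0.263 ± 0.712 in goblet cells (SD, n = 8 mice each). In endothelial cells it averaged 4.90 ± 5.43 in aerocytes, 2.72 ± 6.56 in lymphatic, 2.20 ± 4.59 in arterial, 0.727 ± 0.619 in venous and 0.433 ± 0.257 in gCap cells (n = 8 each). Aerocytes and gCap cells, which line the same capillaries, were thus far apart in mean but not beyond the SD of the aerocytes. In leukocytes it averaged 6.27 ± 9.15 in neutrophils, 6.02 ± 6.62 in T cells, 3.47 ± 6.02 in classical monocytes, 1.71 ± 4.32 in alveolar macrophages and 0.449 ± 0.187 in B cells (n = 8 each), and 5.17 ± 8.20 in mast cells (n = 7). In stromal cells it averaged 6.34 ± 8.87 in pericytes (n = 3), 3.91 ± 5.37 in adventitial and 0.319 ± 0.212 in alveolar fibroblasts (n = 8 each). The SD was as large as the mean or larger in most of these types.

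Leaving out the globin-rich cells, which cannot raise the summed globin level, put Hbb-bs between 0.00960 in goblet cells and 0.533 in neutrophils, with pericytes above at 1.54. For Hbb-bs the types did not come closer in ratio. The highest of the 25 labels other than the erythrocyte label stood 49.2 times above the lowest with all cells. Without the globin-rich cells it stood 160.1 times above, and the highest was then the pericytes, with 3 mice. This ratio also rose for Hba-a2 (26.3 to 41.0) but fell for Hba-a1 (23.9 to 18.1) and Hbb-bt (35.9 to 29.0). AT1 cells fell to 0.210 ± 0.180, AT2 cells to 0.1003 ± 0.0922, aerocytes to 0.419 ± 0.230, T cells to 0.361 ± 0.271, whereas gCap cells stayed at 0.420 ± 0.240 and B cells at 0.378 ± 0.204 (SD, n = 8 each). Aerocytes and gCap cells were then at nearly the same level. Several types with many UMIs per cell were at the lower end of this order. Goblet cells had a median of 35093 UMIs, ciliated cells 15907 and AT2 cells 11684, whereas neutrophils had 2295 and gCap cells 3833, but club cells, with a median of 32786, stood at 0.325. The part of depth in this order was not tested.

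**Figure D3:**
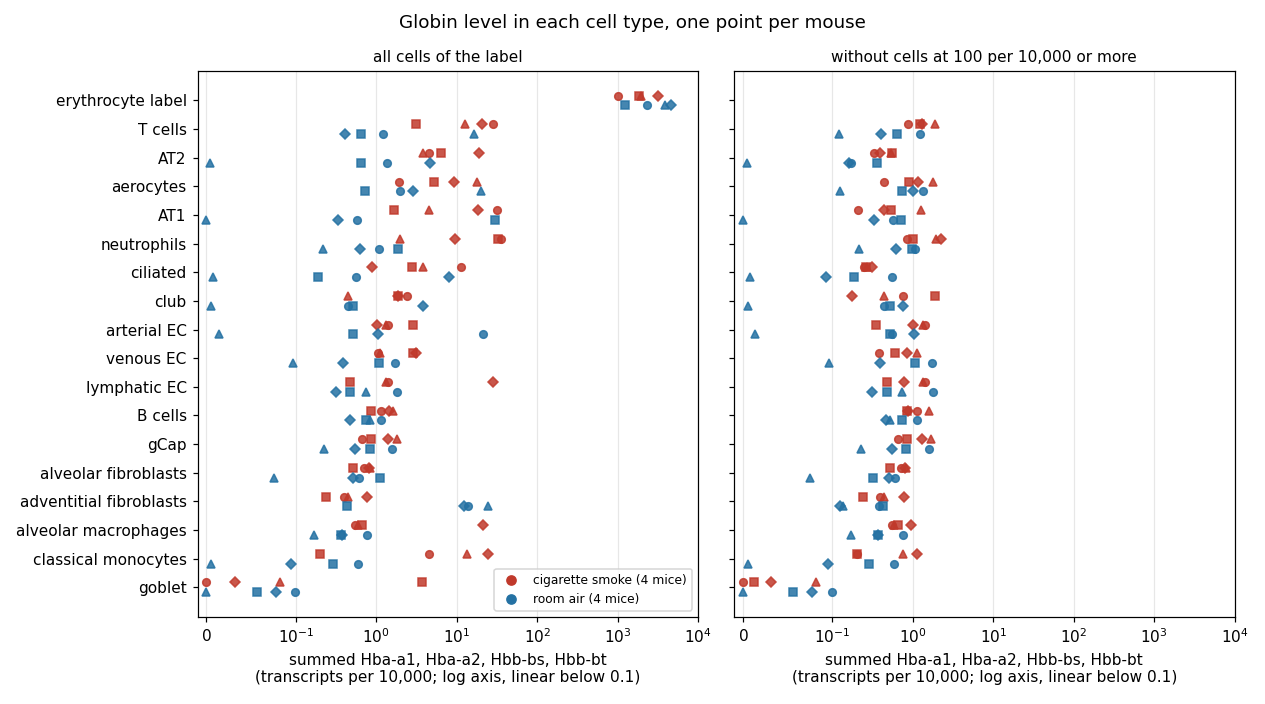
Summed globin transcripts per 10,000 (x axis, log scale, linear below 0.1) in 18 labels (rows), one point per mouse, with CS in red above RA in blue, for all cells of a label (left) and without the globin-rich cells (right). In the left panel the erythrocyte label lies between 1003 and 4631 and the mice of many other labels spread over more than a decade, and in the right panel, which leaves out the erythrocyte label, no value reaches 10 while low values, many of them of M3, remain.

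Over the 32 labels, the genes whose pattern was most like that of Hbb-bs (Pearson r of log2 mean levels plus 0.1, among 16803 genes with a value above 0 in 1% of cells or more) were Hba-a1 (r = 0.98), Hba-a2 (0.97), Hbb-bt (0.95) and Alas2 (0.80). Without the erythrocyte label the other members still came first, at 0.98, 0.97, 0.92 and 0.66, followed by the lysosomal gene Hgsnat at 0.63. The points of these correlations share 8 mice and the same few cells.

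In AT2 cells, the contrast that led to the choice of these genes, Hba-a2 stood at 0.735 transcripts per 10,000 in C2, 0.872 in C5, 1.76 in D2 and 0.680 in D5, and at 0.131 in F1, 0.104 in F3, 0.479 in M1 and 0 in M3. All CS mice lay above all RA mice, with means of 1.01 ± 0.505 and 0.178 ± 0.208 (SD, n = 4 each), a ratio of 5.68. Hba-a1 also did not overlap, with 0.744, 1.06, 2.39 and 0.859 in the CS mice in the same order and 0.193, 0.159, 0.730 and 0.000998 in the RA mice. Of all 9138 genes tested in AT2 cells, 2.44% had all CS mice above all RA mice, and since this contrast chose the members nothing is read from their count.

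Hbb-bs in AT2 cells was 2.57 in C2, 3.77 in C5, 11.98 in D2 and 1.85 in D5, against 0.981 in F1, 0.276 in F3, 2.72 in M1 and 0 in M3, and the groups overlapped at D5, C2 and M1. Hbb-bt was 0.423, 0.633, 2.72 and 0.379 in the CS mice and 0.0706, 0.112, 0.735 and 0.00309 in the RA mice, where M1 lay above C2, C5 and D5. Alas2 was at most 0.0629 in any mouse.

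These AT2 means rest on 12 cells. Of the 12 globin-rich AT2 cells, C2 had 2 of 116 AT2 cells, C5 1 of 196, D2 3 of 228 and D5 3 of 165, and F1 had 1 of 335, F3 1 of 559, M1 1 of 211 and M3 0 of 71. A count of 0 of 71 still allows a share of up to 4.23%, and the exact 95% interval of the share in D5, 1.82%, runs from 0.377% to 5.22% by counting error alone, so the single mice are not told apart. The richest AT2 cell, from D2, had 2998 globin transcripts per 10,000 and 626 of Sftpc. Without the 12 cells, Hba-a2 was 0.119 in C2, 0.137 in C5, 0.0888 in D2 and 0.0512 in D5, and 0.0416 in F1, 0.0590 in F3, 0.0408 in M1 and 0 in M3. D5 then lay below F3, and the group means were 0.0991 ± 0.0376 and 0.0353 ± 0.0250. The ratio of the means went from 5.68 to 2.803. The log2 difference went from 0.76 to 0.09 on the scale of the mean plus 1, which compresses ratios of levels this far below 1. For Hbb-bs the ratio went from 5.08 to 2.93 and the log2 difference from 1.52 to 0.13. Without these cells Hba-a1 stood at 0.102 to 0.128 in CS and 0.000998 to 0.0747 in RA mice. The values come from the AT2 cells that chose the members, so nothing is read from this lack of overlap.

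**Figure D4:**
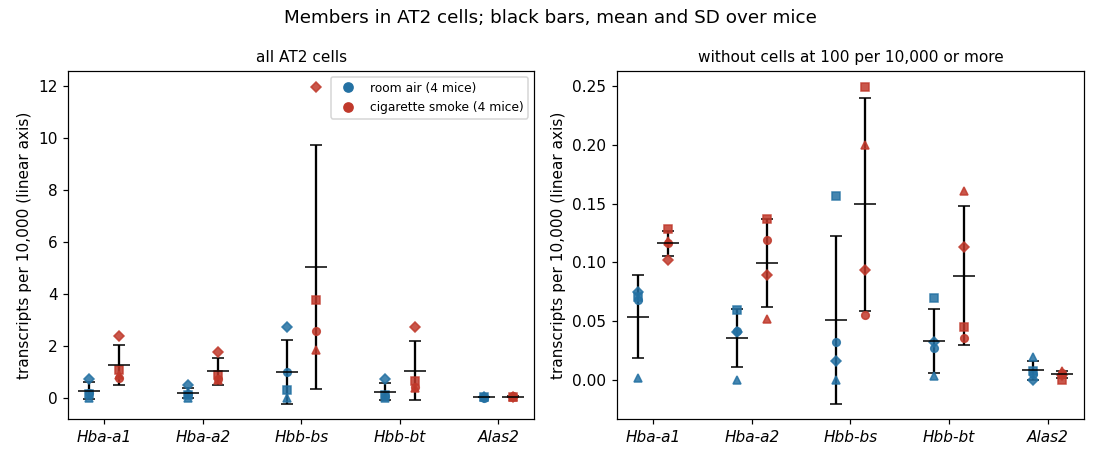
Transcripts per 10,000 of the 5 members (x axis) in AT2 cells of each mouse (points; blue, RA; red, CS) with means and SD of 4 mice (black bars), for all AT2 cells (left) and without the 12 globin-rich cells (right), on linear axes of different range. The left panel reaches 11.98 for Hbb-bs in D2, and the right panel does not exceed 0.250.

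Of the 12 globin-rich AT2 cells, 10 had a value above 0 for at least one of the endothelial genes Pecam1, Cldn5 and Cdh5 or the leukocyte gene Ptprc, against 1170 of the other 1869 AT2 cells (62.6%). In AT2 cells without any of these 4 genes, Hba-a2 was 0.0766 in C2, 0.137 in C5, 0.107 in D2 and 2.17 in D5, and 0.0106 in F1, 0.0344 in F3, 0.0441 in M1 and 0 in M3. The CS mice lay above the RA mice, but these are part of the AT2 cells that chose the members, so nothing is read from it. D5 stood apart with 45 such cells, 2 of which were globin-rich. The part of cell doublets in these values was not tested.

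Beyond AT2 cells, the question was whether the members differ between CS and RA mice in other cells that are not erythroid. Averaged with equal weight over the 16 other cell types with at least 20 cells in every mouse, Hba-a2 was 0.884 transcripts per 10,000 in C2, 0.516 in C5, 1.02 in D2 and 0.597 in D5, and 0.484 in F1, 0.250 in F3, 0.239 in M1 and 0.490 in M3. Every CS mouse lay above every RA mouse, with means of 0.754 ± 0.237 and 0.366 ± 0.140 (SD, n = 4 each), a log2 difference of 0.88 (standard error 0.30, on the scale of the level plus 0.1) and an exact two-sided permutation p of 0.0286, the smallest possible. Hba-a1 likewise did not overlap: it was 1.14, 0.680, 1.31 and 0.689 in C2, C5, D2 and D5, and 0.643, 0.378, 0.360 and 0.498 in F1, F3, M1 and M3 (means 0.954 ± 0.319 and 0.470 ± 0.131, log2 difference 0.86, standard error 0.27, exact p = 0.0286). The gap was narrow, since C5 at 0.680 lay next to F1 at 0.643. Of the 16803 genes, 11.2% had all CS mice above all RA mice in the same average and 6.25% had all CS mice below. The 2 of 5 members so separated share much of their sequence. Without C2, D2, F3 or M1 in turn the exact p of each gene lay between 0.0571 and 0.0857, with the CS mean still higher. With the CS and RA mouse of each lane paired, CS was higher in 4 of 4 lanes for both genes, and the exact sign-flip p was 0.125, the smallest that 4 pairs allow.

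Hbb-bs averaged over the same types was 4.65 in C2, 2.16 in C5, 5.69 in D2 and 2.20 in D5, and 1.65 in F1, 1.42 in F3, 1.19 in M1 and 2.42 in M3. M3 lay above C5 and D5, and the log2 difference of 1.01 (standard error 0.41) had an exact p of 0.0857. Hbb-bt gave 0.78 (standard error 0.35, exact p = 0.143) and Alas2 0.17 (standard error 0.12, exact p = 0.286), with overlapping groups. The 5 members were tested in this way, and they share mice, cells and, in part, sequence. Their p-values are not adjusted, and the mice are those whose AT2 cells chose the members. Without the globin-rich cells the log2 differences were 0.37 for Hba-a2 (exact p = 0.200), 0.32 for Hba-a1 (exact p = 0.314), 0.76 for Hbb-bs (exact p = 0.0571), 0.25 for Hbb-bt (exact p = 0.429) and 0.03 for Alas2 (exact p = 0.200), and the groups overlapped for all 5 members. Neither alpha-globin gene kept its separation without the globin-rich cells.

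The number of globin-rich cells was counted apart from their level. CS mice had 93 of the 122 and RA mice 29. With AT2 cells left out, the percent of cells of other labels that were globin-rich was 0.723 in C2, 0.220 in C5, 0.474 in D2 and 0.402 in D5, and 0.116 in F1, 0.0896 in F3, 0.157 in M1 and 0.283 in M3. M3 lay above C5. The means were 0.455 ± 0.208% and 0.161 ± 0.0855% (SD, n = 4 each), a difference of 0.293 percentage points with an exact two-sided permutation p of 0.0571, and CS was higher in 4 of 4 lanes. At a limit of 30 per 10,000 the difference was 0.418 (exact p = 0.0571) and at 300 it was 0.174 (exact p = 0.0857). Without C5, the CS mouse with the smallest share, the exact p fell to 0.0286 at 100 (difference 0.372) and at 300 (0.231). Without any other mouse it lay from 0.0571 to 0.0857 at 100 and from 0.0857 to 0.143 at 300, and without C2 the difference was 0.204 at 100 and 0.114 at 300. At 30 the exact p lay from 0.0571 to 0.114 whichever mouse was left out. The percent of cells with the erythrocyte label moved in the same direction, as given above, and the part of the number of red cells left in a suspension in these differences was not tested.

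By cell type, no member passed the test across all genes. In 21 labels other than AT2, 29 pairs of a member and a label passed the filter (the member above 0 in 10% or more of the cells of the CS or the RA mice), and limma on log2 of the mean plus 1 called 0 of the 29 at an adjusted p of 0.05, over a background of 1.34% of 164394 pairs of any gene and a label. An unadjusted p below 0.05 was found for 12 of the 29, and for 15.6% of all pairs, but a member often passed the filter through the group where it was high, and several pairs share the same cells. All 5 members passed the filter in no label, and Alas2 passed it in mesothelium alone. The lowest adjusted p was that of Hbb-bs in neutrophils, with a log2 difference of 2.697 (standard error 0.57, limma adjusted p = 0.113). There it was 22.5 in C2, 18.9 in C5, 6.004 in D2 and 1.001 in D5, and 0.433 in F1, 1.12 in F3, 0.220 in M1 and 0 in M3. D5, which had no globin-rich neutrophil, lay below F3, which had 1, and 6 globin-rich cells of 172 neutrophils set the value of C2. C5 and D2 had 1 globin-rich neutrophil each. Without globin-rich cells Hbb-bs in neutrophils was 0.239 in C2, 0.425 in C5, 1.36 in D2 and 1.001 in D5. It was then 0.433 in F1, 0.586 in F3, 0.220 in M1 and 0 in M3, and the groups overlapped. Without D5, limma called 1 of 16 member pairs, Hbb-bs in neutrophils (adjusted p = 0.000773), beside 0.276% of all pairs. When genes above 0 in 1% of cells or more were tested, it called the same pair (adjusted p = 0.0377), 1 of 97, beside 0.272% of all pairs. Without F1, it called 1 of 29, beside 0.991% of all pairs, and this was Hba-a2 in arterial endothelial cells, 0.33 higher in CS mice on the log2 scale (adjusted p = 0.0228), against the direction with all mice, where the CS mean was 0.289 and the RA mean 0.815 with F1 at 3.19. Both pairs called with a mouse left out passed the filter through the CS mice, where the member was higher. Without D5, Hbb-bs was above 0 in 8.14% to 18.2% of neutrophils in CS mice and 0% to 17.3% in RA mice. Without F1, Hba-a2 was above 0 in 4.21% to 13.6% of arterial cells in CS mice and 0% to 2.08% in RA mice. Nothing is read from these calls.

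T cells came next, with a log2 difference for Hbb-bs of 2.07 (standard error 0.71, limma adjusted p = 0.155). Hbb-bs was 17.1 in C2, 1.55 in C5, 13.4 in D2 and 6.75 in D5, and 0.229 in F1, 0.165 in F3, 0.190 in M1 and 8.80 in M3. A single globin-rich T cell of 227 gave M3 its value, and without globin-rich cells M3 had 0.00239. Globin-rich T cells numbered 6 in C2, 1 in C5, 2 in D2 and 2 in D5. Without them Hbb-bs in these CS mice was 0.356, 0.465, 0.721 and 0.761. In aerocytes Hbb-bs was 1.08 in C2, 3.33 in C5, 5.85 in D2 and 10.8 in D5, and 0.895 in F1, 0.369 in F3, 1.62 in M1 and 15.2 in M3, where M3 again had 1 globin-rich cell (of 249) and was the highest of the 8 mice (log2 difference 0.68, standard error 0.70, limma adjusted p = 0.552). CS mice held 17 of the 20 globin-rich aerocytes and RA mice 3. In alveolar macrophages the CS mice lay above the RA mice for Hbb-bs, 0.246, 0.283, 12.4 and 0.316 against 0.197, 0.109, 0.139 and 0 (limma adjusted p = 0.477). The value of 12.4, in D2, rests on 1 globin-rich cell of 49, and without that cell it was 0.547. Of the 29 tested pairs 2 did not overlap with CS higher and 0 with CS lower, and 6.18% of all pairs had all CS mice above all RA mice.

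Adventitial fibroblasts, the connective-tissue cells around vessels and airways, went the other way. All 3 of their globin-rich cells came from RA mice, and Hba-a2 was 0.0484 in C2, 0.0214 in C5, 0.0915 in D2 and 0.0951 in D5, and 1.71 in F1, 0.0549 in F3, 1.53 in M1 and 2.96 in M3. Hbb-bt, which did not pass the filter for testing there, had all CS mice (0.0205 to 0.109) below all RA mice (0.122 to 4.002). Pericytes had 3 globin-rich cells, all from F1, which gave 126 of the 272 pericytes, and CS mice gave only 45. Alveolar and peribronchial fibroblasts had 1 each, from RA mice, and mesothelium 4 from RA and 2 from CS mice. Over the 21 labels the CS mean was the higher one in 17 labels for Hba-a2, 16 for Hbb-bs, 16 for Hbb-bt, 15 for Hba-a1 and 12 for Alas2. The labels share the same mice, and the same count was not made for all genes, so nothing is read from these counts. With AT2 cells left out, globin-rich cells were more numerous in CS than in RA mice in 17 labels, less numerous in 5 and equal in 2, counts that are not scaled to the number of cells.

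The part of cells with any value above 0, however small and with globin-rich cells counted in, was averaged by mouse over the same 16 types. Hba-a2 was above 0 in 7.92% of cells in C2, 4.97% in C5, 7.91% in D2 and 12.4% in D5, and in 8.46% in F1, 4.24% in F3, 3.38% in M1 and 3.54% in M3 (means 8.30 ± 3.07% and 4.91 ± 2.40%, exact p = 0.114). The groups overlapped. Hbb-bs, although the most abundant member, was above 0 in only 3.85% of cells in C2 and 0.915% in M3, fewer than any alpha-globin gene in the same mice, whereas in C5 and F3 it was above 0 in 11.6% and 12.5%. The order of the members by the share of cells above 0 therefore differed between mice.

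Transcripts of other abundant sources were read in cells that should lack them. Summed transcripts of 6 epithelial genes (Sftpc, Sftpa1, Sftpb, Scgb1a1, Scgb3a2 and Cyp2f2) in gCap cells were 7.84 in C2, 7.96 in C5, 7.71 in D2 and 9.31 in D5, and 12.9 in F1, 17.5 in F3, 19.3 in M1 and 8.23 in M3, lower in CS mice by 0.74 on the log2 scale (exact two-sided permutation p = 0.0571). In B cells the same sum averaged 24.4 ± 16.8 in CS and 8.32 ± 7.66 in RA mice (exact p = 0.171), and in T cells 13.6 ± 10.9 and 11.1 ± 9.18 (exact p = 0.686). The neutrophil genes S100a8 and S100a9 summed to 0.0864 ± 0.0354 in gCap cells in the CS group and 0.220 ± 0.211 in the RA group (exact p = 0.371), with exact p = 0.886 in B cells and 0.343 in T cells. In gCap cells the globin sum without globin-rich cells was between 0.227 and 1.70 in the 8 mice. None of the 6 comparisons passed (smallest Benjamini-Hochberg adjusted p = 0.343, exact permutation tests), and the direction was not the same in all of them. Without M3 the exact p was 0.0286 for the epithelial genes in gCap cells and for the neutrophil genes in T cells, both lower in CS mice. The part of free RNA in the hemoglobin values was not tested.

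Other genes of the pathway were read from 5 lists, and their levels were averaged per mouse and compared among the same 26 labels. Of the other globins, Hbq1b, a theta-globin, was highest in the erythrocyte-labelled cells, at 0.350 per 10,000, the embryonic Hba-x and Hbb-y were at 0 there, and Cygb, a globin of stromal cells, was highest in adventitial fibroblasts, at 9.72. Of 11 heme synthesis genes, 9 were highest in the erythrocyte-labelled cells, among them Fech, which inserts iron, at 5.12, while Alas1, the form of the enzyme used outside red cells, was highest in ciliated cells, at 8.93. Of 28 erythroid membrane, carrier and enzyme genes, 26 were highest in the erythrocyte-labelled cells, and 25 had a higher mean over cells in the globin-rich than in the remaining cells. This last comparison held for 7 of 11 heme synthesis genes and 3 of 8 erythroid transcription factors. It held for 3 of 7 other globins and 1 of 6 clearance genes. Of 8 erythroid transcription factors 3 were highest in the erythrocyte-labelled cells, Klf1, Lmo2 and Nfe2, the last at 0.605, close to the 0.581 in neutrophils. Of 6 genes for the clearance of hemoglobin and heme none was. Haptoglobin (Hp), which binds free hemoglobin, was highest in club cells, at 38.6, and Hmox1, which breaks down heme, in alveolar macrophages, at 6.397.

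Between the groups, limma called 5 of 444 pairs of a listed gene and a label other than AT2 (1.13%), near the 1.34% of all pairs, so the counts show nothing particular to these lists. With the lane as replicate block it called 0 of 444, with adjusted p from 0.0638 to 0.0807 for those 5, beside 0.406% of all pairs. It also called 0 of the listed pairs without C2, D2 or D5, where 0.301%, 0.420% and 0.276% of all pairs were called. With AT2 cells counted in, and Fech in both of its lists, heme synthesis genes gave 148 pairs of a gene and a label, of which 0 rose and 2 fell in CS mice, both of them Slc25a38, a mitochondrial glycine carrier, in ciliated cells (log2 difference -0.14, limma adjusted p = 0.0414) and in gCap cells (-0.16, limma adjusted p = 0.0376). The membrane, carrier and enzyme genes gave 218 pairs, of which 2 rose, Blvrb (0.32, limma adjusted p = 0.0250) and Gpx1 (0.24, limma adjusted p = 0.0216) in ciliated cells, and none fell. Both are antioxidant or heme-breakdown enzymes that many cells make. The transcription factors gave 50 pairs, of which 1 rose, Ldb1 in gCap cells (0.15, limma adjusted p = 0.0387). The other globins (8 pairs) and the clearance genes (62 pairs) gave 0 calls. Median log2 differences of the lists lay between -0.05 and 0.08. In AT2 cells, where 0 of 9138 genes passed and 670 had an unadjusted p below 0.05, 9 heme synthesis genes were tested, 5 of them with the higher mean in CS mice.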

How the data were processed

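Single-cell 3′ RNA libraries (10x Genomics v3) from 8 mice were sequenced in 4 lanes, each holding 1 CS and 1 RA mouse. The authors trimmed reads with cutadapt, aligned them with STARsolo (STAR 2.7.3a) to GRCm38.p6, summed UMIs of spliced and unspliced RNA, filtered cells, labelled cell types and removed free RNA with SoupX. The deposited matrix is called normalized but holds estimated counts, UMIs after that removal, which are not whole, so no count model was used. The deposited percent of mitochondrial UMIs per cell, computed by the authors, was read but enters no result. The labels of cell types are those of the authors.

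Each count was divided by the cell's total, multiplied by 10000 and averaged per mouse and label. Multiplets and cell cycle cells were left out. Within labels with at least 20 cells in 3 or more mice of each group, genes above 0 in at least 10% of cells of a group were tested with limma 3.58.1 (R 4.3.3) on log2(mean + 1), with Benjamini-Hochberg adjustment over all genes of the label and a threshold of 0.05. Exact permutation of the mice (70 assignments) compared levels on log2(level + 0.1) and shares or percents of cells as differences in percentage points. Values within a mouse were compared by exact sign flips. Intervals of shares are exact binomial at 95%, a count of 0 was read as up to 3 counts, and both cover counting error only. The limma step was tested on simulated data. Self-made limits and cell classes chosen after seeing the data are named as such in the text.

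The members and lists were chosen with earlier results of these data known. The genes named are the members, the genes of 5 lists and of cell type marker lists, and the genes most like Hbb-bs. Some genes of these lists are not reported here. The lane in the labels pairs the mice, and a fit with the lane as block was an alternative. Deviations of mice of the same lane from their group means correlated between -0.185 and 0.179, and those of mice of different lanes between -0.204 and 0.222. Other alternatives changed the pseudocount, the filter, the scaling and the cells or mice included. Promoter sequences are those of RefSeq for GRCm38.p6, in which all 5 members were found. Gene positions are from GENCODE. Analyses used Python 3.11.15, numpy 2.4.6, pandas 2.3.3 and scipy 1.17.1.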

Additional observations from a re-analysis of the deposited data

Results flagged for a closer look

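In 48 groups of 4 mice, 6 held a mouse far from the other 3. Chance would give about 1 in 20 independent groups, or 2.4. These groups share mice, genes and cells, so nothing is read from their count. Hbb-bt in AT2 cells of D2 was 2.72 and in the rest of the CS group 0.379 to 0.633. In M1 it was 0.735 and in the rest of the RA group 0.00309 to 0.112. Hbb-bs in T cells of M3 was 8.80, against 0.165 to 0.229 in the other RA mice, and in aerocytes of M3 it was 15.2, against 0.369 to 1.62. The summed epithelial genes in B cells of F3 were 19.7, against 3.05 to 5.79 in the other RA mice, and in gCap cells of D5 they were 9.31, against 7.71 to 7.96 in the other CS mice.

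The log2 difference of Hbb-bt between CS and RA mice was larger than that in adventitial fibroblasts by 3.25 in club cells (exact permutation p = 0.0571), by 4.03 in lymphatic endothelial cells (exact p = 0.0571) and by 5.46 in neutrophils (exact p = 0.0286). These pairs of cell types were chosen after their values were seen, and the p-values are not adjusted.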

How the results depend on the processing

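Of 343 alternative values 250 kept their direction and their side of the threshold, and 65 were no longer past it. Another 3 came past it, 15 moved beyond the spread and 10 reversed. For the average over other types, passing refers to the unadjusted exact p. For the average over other types, the log2 difference of Hba-a1 and of Hba-a2 no longer passed with a mean over all cells of the types (0.81 and 0.83), summed counts (0.92 and 0.92), UMIs per cell without scaling (0.46 and 0.50), totals without the members (0.82 and 0.85), without the top 1% of cells by globin level (0.64 and 0.65), with multiplets as one more type (0.88 and 0.91) and without globin-rich cells (0.32 and 0.37), nor did the percent of cells above 0 (3.19 and 3.40 points). Hba-a2 also did not pass over types with at least 50 cells in every mouse (0.95). With the lane as block the differences were 0.86 and 0.88, and the exact p of 0.125 is the smallest that 4 pairs allow, so the block says nothing about stability here. With the lane as block none of the 5 calls of listed genes remained past the threshold (adjusted p from 0.0638 to 0.0807 in limma), and no call of a member was gained. Leaving out each mouse in turn gave 0.71 to 1.001 for Hba-a1 and 0.74 to 1.03 for Hba-a2.

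In AT2 cells, a pseudocount of 0.1 gave log2 differences of 2.13 for Hba-a1, 2.19 for Hba-a2, 2.76 for Hbb-bs, 1.85 for Hbb-bt and 0.0940 for Alas2. Without the top 1% of cells they were 0.13, 0.11 and 0.22 for the first 3, and without globin-rich cells 0.0838, 0.0859, 0.13 and 0.0743 for the 4 globins. Alas2 reversed without the top 1% of cells (-0.0030), without globin-rich cells (-0.0049) and in AT2 cells without Pecam1, Cldn5, Cdh5 and Ptprc (-0.0089), and ranged from -0.0028 to 0.0214 when each mouse was left out.

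Leaving out each mouse, the difference in the share of erythrocyte-labelled cells ranged from 0.0888 to 0.226 percentage points. For the epithelial genes it ranged from -0.19 to 0.76 in T cells and from -0.99 to -0.58 in gCap cells, and for the neutrophil genes from -0.14 to 0.29 in B cells and from -0.98 to -0.0787 in T cells. Calls of members by cell type numbered 0 to 1 when each mouse was left out (1 of 16 pairs without D5, beside 0.276% of all pairs, and 1 of 29 without F1, beside 0.991%) and 1 of 97 with genes above 0 in at least 1% of cells, beside 0.272% of all pairs. Nothing is read from the calls with a mouse left out, because those pairs passed the filter through the group where the member was higher. No member could be tested with a filter of 25%. The causes of these changes were not tested. With 4 mice a group and under 20 globin-rich cells in all types but aerocytes, levels by type rest on few cells.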

Other observations

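The barcodes that the authors labelled multiplets were left out above. Their summed globin level was 0.123 per 10,000 in C2, 0.257 in C5, 2.44 in D2 and 19.1 in D5, and 8.67 in F1, 0.513 in F3, 0.179 in M1 and 0.0900 in M3, with a median of 0.385. Hbb-bs in them ranged from 0 in M3 to 11.7 in D5.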
